A study of Mus musculus with 6 samples.

Results

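A set of 10 genes of alcohol, retinoid and steroid oxidation and reduction were followed: the alcohol dehydrogenase genes Adh1, Adh4, Adh5, Adh6a and Adh7, the aldehyde dehydrogenase genes Aldh1a1, Aldh1a2, Aldh1a3 and Aldh3a1, and the aldo-keto reductase gene Akr1c18. They are 10 of the 19938 genes that the array measures with a probe set annotated to a single symbol, and each is measured by 1 such probe set. They were chosen by family name while their KO minus WT differences in log2 intensity on these arrays were already known, and the probe set was selected on its mean. Their differences are therefore a description, with no p-value for any of them. The samples were medullary epithelial cells of the thymus, sorted by absence of CD45, intermediate Ly51 and high MHC class II. The groups were 3 Aire KO mice and 3 Aire WT mice, all on the (B6xNOD)F1 background and 4 to 6 weeks old, with 1 array per mouse. How Aire is disrupted in the KO mice is not in the labels, and the RNA of every mouse was amplified in 2 rounds before labelling.

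Alcohol dehydrogenases oxidise ethanol, retinol and other alcohols to aldehydes. The Aldh1a enzymes convert retinaldehyde to retinoic acid, which acts through the nuclear receptors of the Rar and Rxr genes, is bound in the cytoplasm by Crabp proteins and is broken down by Cyp26 enzymes. Aldo-keto reductases of the Akr1c group reduce steroids and other carbonyl compounds. Medullary epithelial cells transcribe genes of many other organs, in part through the regulator Aire, and present the products to developing T cells. Several of these dehydrogenases are abundant in liver, stomach, cornea or ovary.

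The values are log2 intensities made by RMA, and each difference is the Aire KO mean minus the Aire WT mean. Array medians ran from 92.9 to 98.2 on the linear scale, and the arrays of any pair had at most 50 values in common. Aire had a log2 intensity of 12.41 ± 0.02 in KO and 11.97 ± 0.04 in WT (SD, n = 3 each), higher in KO. That probe set may lie outside the deleted part, so it does not check the labels. All 13 medullary markers examined lay above the intensity filter, with a summed log2 level of 15.48 to 15.54 in KO and 15.42 to 15.44 in WT. By limma Krt5 (-0.84), Krt14 (-0.44) and Epcam (-0.37) of that list fell, and Aire and Ctss (0.46) rose. The other 8, among them Cd80 and Fezf2, were not called. Each sum adds linear intensities, so the brightest genes weigh most. For the medullary sum these are H2-Aa (13.63 in KO, 13.43 in WT) and H2-Ab1 (13.48 in KO, 13.28 in WT), genes of the MHC class II used in the sort. Of 8 dendritic cell and macrophage markers, with a summed level of 9.25 to 9.33 in KO and 9.76 to 9.84 in WT, 6 were above the filter and 4 fell: the macrophage and monocyte genes Adgre1 (-1.58), Cd14 (-0.84), C1qa (-0.59) and Csf1r (-0.54). Adgre1 passed the filter on the WT arrays alone and could only be lower. The dendritic cell genes Flt3 (-0.15) and Xcr1 (-0.16) were not called, and Itgax and Siglech were dim. Summed thymocyte markers were 9.23 to 9.56 in KO and 9.50 to 10.05 in WT, cortical epithelial markers 10.77 to 10.99 in KO and 11.16 to 11.33 in WT, and fibroblast markers 10.57 to 10.91 in KO and 10.25 to 10.49 in WT. Within these sums, cortical Enpep and Ctsl fell and Prss16 rose, and of the fibroblast genes Col1a1 fell and Dcn rose. Enpep, the gene of the Ly51 used in the sort, was at 6.27 in KO and 7.26 in WT (limma adjusted p = 6.4e-06). Whether the sorted cells differed in surface Ly51 was not tested. B cell markers summed to 7.47 to 7.65 in KO and 7.39 to 7.51 in WT, and endothelial markers to 7.86 to 8.00 in KO and 7.99 to 8.10 in WT. Pax5, the only B cell marker tested, rose (0.31), while dim Ms4a1 was at 4.72 in KO and 5.19 in WT. Psmb11 of cortical cells and Cd79a of B cells were too dim to test. In such bulk samples, fewer cells of a type and less RNA per cell cannot be told apart.

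The upstream sequences of 5 genes are shown because they belong to 2 gene clusters within which the values differed. Akr1c18 was far lower in KO, Akr1c13 and Akr1c12 of the same cluster were higher, and in the Adh cluster Adh6a was lower while Adh5 differed by 0.03. Each run is the 250 bases before the annotated start, from RefSeq on GRCm38.p6, read 5′ to 3′ on the gene's strand. Capitals mark TATAAA (the TATA box), CCAAT or GGGCGG on either strand.
Akr1c18 promoter, chr13:4150647-4150896, minus strand: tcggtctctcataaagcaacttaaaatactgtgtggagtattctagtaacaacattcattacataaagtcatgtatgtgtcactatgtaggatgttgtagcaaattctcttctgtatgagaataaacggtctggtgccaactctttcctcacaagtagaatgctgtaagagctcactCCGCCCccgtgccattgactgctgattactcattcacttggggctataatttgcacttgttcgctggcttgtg
Akr1c13 promoter, chr13:4190937-4191186, plus strand: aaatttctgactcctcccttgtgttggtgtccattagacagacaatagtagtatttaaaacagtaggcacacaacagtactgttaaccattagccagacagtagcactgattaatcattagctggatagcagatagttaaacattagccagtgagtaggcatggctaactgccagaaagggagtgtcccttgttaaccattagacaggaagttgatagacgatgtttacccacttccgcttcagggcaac
Akr1c12 promoter, chr13:4279400-4279649, minus strand: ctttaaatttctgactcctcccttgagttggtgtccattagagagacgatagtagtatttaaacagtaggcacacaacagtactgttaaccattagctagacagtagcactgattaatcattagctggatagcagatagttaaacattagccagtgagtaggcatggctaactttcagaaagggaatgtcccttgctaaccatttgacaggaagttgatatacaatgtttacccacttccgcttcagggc
Adh6a promoter, chr3:138313036-138313285, plus strand: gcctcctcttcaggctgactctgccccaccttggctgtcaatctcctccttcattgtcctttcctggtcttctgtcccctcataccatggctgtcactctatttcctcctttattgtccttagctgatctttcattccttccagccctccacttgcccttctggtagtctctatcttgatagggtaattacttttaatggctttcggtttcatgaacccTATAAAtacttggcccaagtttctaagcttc
Adh5 promoter, chr3:138442843-138443092, plus strand: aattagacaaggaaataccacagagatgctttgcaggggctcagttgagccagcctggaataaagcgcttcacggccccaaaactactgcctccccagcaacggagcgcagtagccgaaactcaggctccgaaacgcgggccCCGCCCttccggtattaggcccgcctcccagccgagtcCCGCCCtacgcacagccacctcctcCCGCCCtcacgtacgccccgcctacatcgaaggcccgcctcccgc

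RefSeq held a promoter for 8 of the 10 genes and 10 windows in all, since Adh5 and Aldh1a1 have 2 annotated starts each. TATAAA stood in 3 of these windows, against 12.4% of all 32851 promoters of the table, CCAAT in 4, against 33.8%, and GGGCGG in 2, against 32.7%. The Adh6a window has TATAAA beginning 31 bases before the start, the Akr1c18 window has 1 GGGCGG (on the opposite strand), and the Adh5 window shown has 3. The Adh5 window shown is 63.6% G and C with 21 CpG, beside medians of 52.4% and 6 over the table. The other Adh5 window has 45.2% and 2, with TATAAA and no GGGCGG, and that of Adh4 41.6% and 1. Of the genes lower in KO, Akr1c18 has 41.6% and 5, Adh6a 46.4% and 1, and Adh1 44.8% and 5. Aldh1a2, which was also lower in KO, has a window of 77.6% G and C with 40 CpG. The Akr1c12 and Akr1c13 windows are 92.5% identical over their alignment, and that of Akr1c18 is 50.8% identical to Akr1c13 and 50.5% to Akr1c12, within the 37.2% to 60.3% of all the other pairs compared. A match of letters is a description and not a binding site.

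Akr1c18 encodes the reductase that inactivates progesterone in the mouse ovary, and had the lowest difference of all 19938 genes. Its log2 intensity was 4.98, 5.03 and 5.39 in the 3 KO mice, against 9.49, 9.39 and 9.87 in the 3 WT mice. Every KO array lay under the intensity filter of 5.97, every WT array lay far above it, and the groups did not overlap. The difference was -4.45, or 21.9-fold lower in KO, a fold that the array background limits. Among the 13924 other tested genes, those closest to Akr1c18 in pattern, by the mean absolute difference of gene-centred log2 values over the 6 arrays, were Gatm of creatine synthesis (0.35), the neuropeptide gene Nts (0.38) and the orphan receptor gene Gpr50 (0.41). Gatm differed by -3.76, Nts by -3.69 and Gpr50 by -3.64, values near that of Akr1c18 because the genes were picked by likeness to it. Their KO means of 5.56, 4.56 and 5.17 lay under the filter, so these differences are limited by background too.

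The retinaldehyde dehydrogenases divided. Aldh1a2, the main source of retinoic acid in the mouse embryo, had log2 intensities of 5.44, 5.46 and 5.54 in KO, against 7.06, 6.95 and 7.46 in WT. Aldh1a1, which is abundant in liver and eye, had 5.55, 5.73 and 5.63 in KO, against 7.33, 7.22 and 6.86 in WT. For both genes all KO arrays lay under the filter and all WT arrays above it, so the differences of -1.68 for Aldh1a2 and -1.50 for Aldh1a1 are limited by background. Aldh1a3, the third enzyme of the group, had 8.22, 8.33 and 8.21 in KO, against 8.52, 8.47 and 8.20 in WT. Its groups overlapped, because the third WT mouse lay below all the KO mice, and the difference was -0.14. Macrophages and dendritic cells can express Aldh1a2. Of the 8 markers of these cells, Adgre1 had the largest difference, with 5.38, 5.33 and 5.32 in KO, against 6.90, 6.84 and 7.03 in WT. It passed the filter on the WT arrays alone and could only be lower. Cd14 (-0.84), C1qa (-0.59) and Csf1r (-0.54), with every array above the filter, were also called lower. Flt3 (-0.15) and Xcr1 (-0.16) were not called, and Itgax and Siglech were dim. The sort was for cells without CD45, which macrophages and dendritic cells carry. The CD45 gene Ptprc was at 6.47 in KO and 7.09 in WT and was called lower (limma adjusted p = 0.022). The part of such cells in the Aldh1a2 difference was not tested.

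Aldh3a1, a corneal aldehyde dehydrogenase, had 6.03, 6.19 and 6.27 in KO, against 7.41, 7.19 and 7.24 in WT. All 6 arrays were above the filter and the groups stood apart, with a difference of -1.12 (2.17-fold lower in KO).

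**Figure D1:**
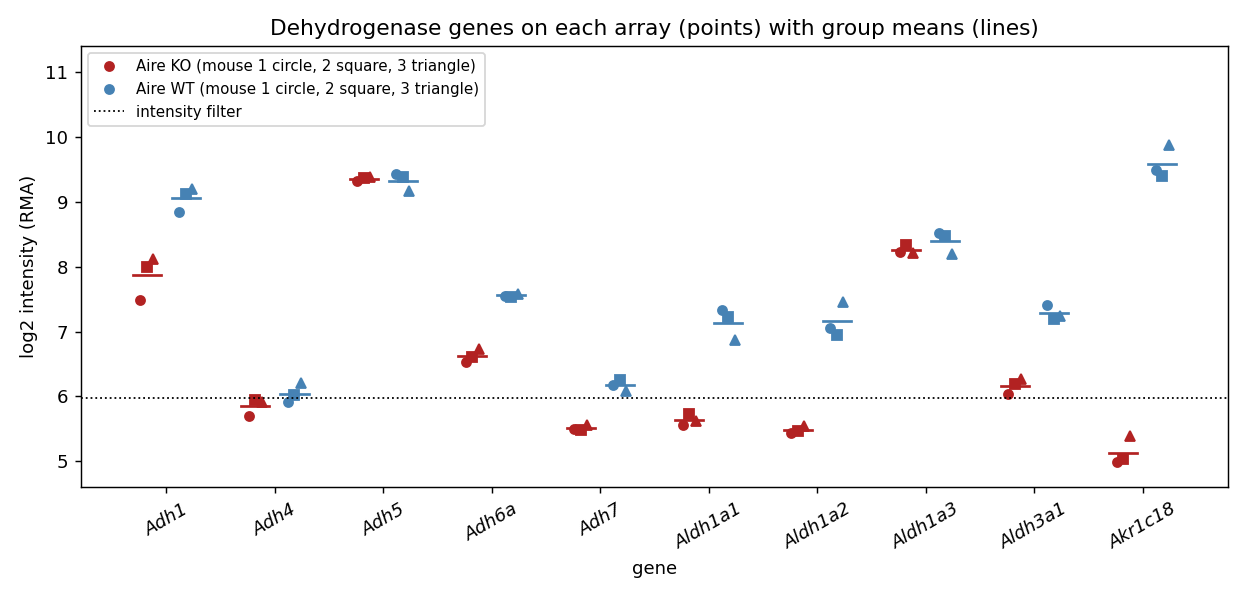
Log2 intensity (vertical axis) of each of the 10 genes (horizontal axis) on each array, with Aire KO mice in red left of Aire WT mice in blue, group means as lines and the intensity filter of 5.97 dotted. Akr1c18 shows the widest gap, at most 5.39 in KO against at least 9.39 in WT, and the groups overlap for Adh4, Adh5 and Aldh1a3.

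The alcohol dehydrogenases lie in 1 cluster on chromosome 3 and were not uniform across it. Adh1, the classical enzyme of ethanol and retinol oxidation in liver, had 7.49, 8.00 and 8.12 in KO, against 8.84, 9.13 and 9.20 in WT. The first KO mouse was the lowest of its group and the groups stood apart, with a difference of -1.19 (2.28-fold lower in KO). Adh6a had 6.54, 6.60 and 6.73 in KO, against 7.55, 7.53 and 7.58 in WT, a difference of -0.93. Adh7, the enzyme of the stomach and upper digestive epithelium, had 5.50, 5.48 and 5.56 in KO, against 6.18, 6.25 and 6.09 in WT. Adh7 passed the filter on the WT arrays alone, and its difference was -0.66.

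Adh5 and Adh4, at the other end of the cluster, had overlapping groups. Adh5, the glutathione-dependent formaldehyde dehydrogenase that nearly all tissues express, had 9.31, 9.37 and 9.39 in KO, against 9.43, 9.37 and 9.17 in WT, a difference of 0.03. It was the 1 gene of the 10 whose mean was not lower in KO, though the difference ran from -0.04 to 0.08 with 1 array left out at a time. The genes closest to Adh5 in pattern were Cenpv (0.013), Dhrs13 (0.017) and Zfp704 (0.018). Their differences, between 0.01 and 0.05, are near that of Adh5 because of this choice. Adh4, a liver enzyme that also oxidises retinol, had 5.70, 5.95 and 5.91 in KO, against 5.91, 6.02 and 6.20 in WT. With 2 of 6 arrays above the filter it was the 1 gene of the 10 too dim to test.

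By limma with Benjamini-Hochberg adjustment over all 13925 tested genes, 7 of the 9 tested dehydrogenase genes were called lower in KO and 0 higher, beside 14.1% of all tested genes called lower and 12% called higher. At an unadjusted p under 0.05 the counts were also 7 and 0. The 7 are Adh1, Adh6a, Adh7, Aldh1a1, Aldh1a2, Aldh3a1 and Akr1c18, and the groups overlapped for none of them, as for 42.4% of all tested genes. Nothing is read from this count, since the same contrast was known when the genes were chosen. Of the 9, Adh7, Aldh1a1, Aldh1a2 and Akr1c18 passed the filter through the WT arrays alone and could only be lower in KO.

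In gene order along the Adh cluster, the array genes run Adh7, Adh1, Adh6a, Adh6b, the pseudogene Adh6-ps1, Adh4 and Adh5. Adh6b, next to Adh6a, was too dim to test at 4.51 ± 0.06 in KO and 5.08 ± 0.16 in WT (SD, n = 3 each), with groups that did not overlap. Adh6-ps1, also dim, differed by 0.002. Outside the cluster, Mttp, the transfer protein gene of lipoprotein assembly, rose by 0.43 (SE 0.09, limma adjusted p = 0.0040), and Metap1, next to Adh5, was at -0.19 and not called. Over the nearest 3 array genes on each side of each of the 10 genes, 38 genes in all, 26 were tested, of which 5 fell and 5 rose, with a median of -0.023. Over all tested genes the median was 0.015 and 26.1% were called. Without WT replicate 1, WT replicate 3, KO replicate 1 or KO replicate 3 the count of falls was 3.

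Neighbours of the other genes moved either way. Anxa1, the gene of an annexin that restrains inflammation and lies near Aldh1a1, fell by 1.15 (SE 0.13, limma adjusted p = 8.6e-05). Cers3, a ceramide synthase gene of the epidermal barrier near Aldh1a3, fell by 0.97 (SE 0.11, limma adjusted p = 5.3e-05), but passed the filter on the WT arrays alone and could only be lower. Myzap, near Aldh1a2, rose by 0.39 (SE 0.09, limma adjusted p = 0.0066). Aldh1a7, a close relative of Aldh1a1 and adjacent to it, was too dim to test at 5.44 ± 0.19 in KO and 6.32 ± 0.37 in WT (SD, n = 3 each).

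**Figure D2:**
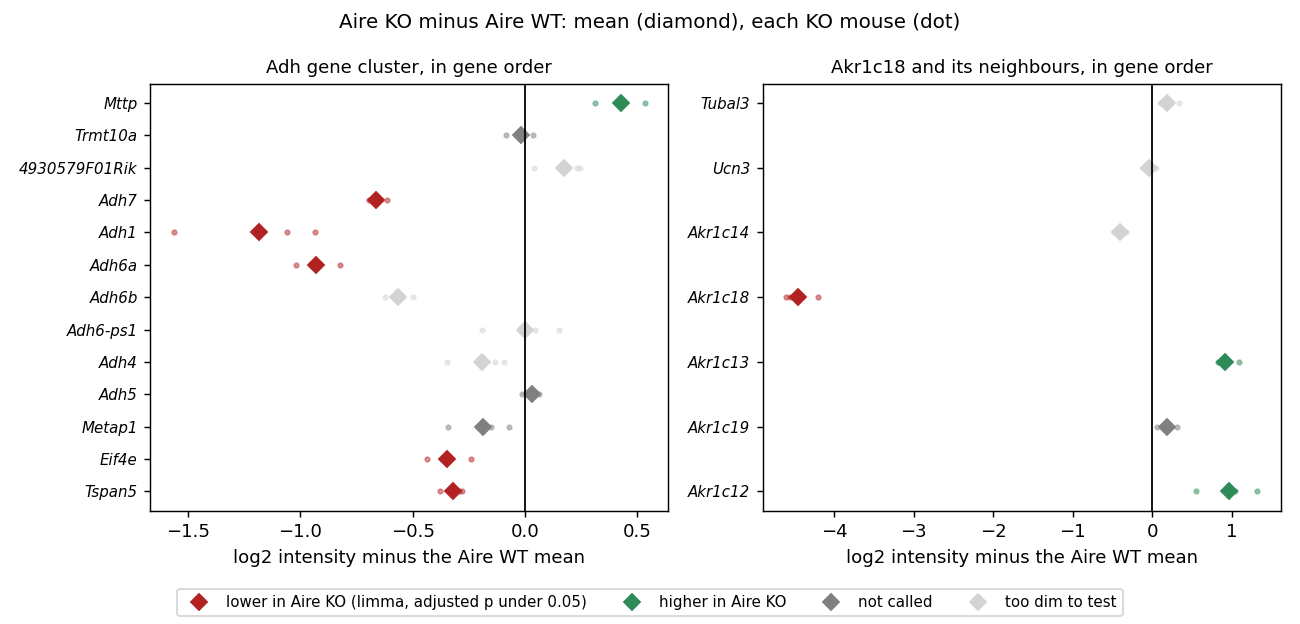
Log2 intensity minus the Aire WT mean (horizontal axis) for genes in chromosomal order from top to bottom, for the Adh cluster (left) and Akr1c18 with its neighbours (right). Diamonds are Aire KO minus Aire WT means, dots are single KO mice, red is lower and green higher by limma, and greys are not called or too dim; Akr1c18 stands at -4.45 between Akr1c14 at -0.41 and Akr1c13 at 0.92.

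The aldo-keto reductase genes around Akr1c18 lay on both sides of 0. Akr1c13 had log2 intensities of 7.20, 7.19 and 7.45 in KO, against 6.03, 6.49 and 6.57 in WT. Akr1c12 had 7.44, 6.95 and 7.72 in KO, against 6.31, 6.38 and 6.52 in WT. Neither gene's groups overlapped: Akr1c13 rose by 0.92 (SE 0.13, limma adjusted p = 0.00048) and Akr1c12 by 0.97 (SE 0.16, limma adjusted p = 0.0010). These 2 genes are close copies, and how far their probe sets share signal was not tested, so they may not be independent. Akr1c19, between them, was at 0.18 and not called, and Akr1c14, which encodes a hydroxysteroid dehydrogenase, stands directly on the other side of Akr1c18 and was too dim to test, at 3.98 ± 0.08 in KO and 4.39 ± 0.22 in WT (SD, n = 3 each, no overlap).

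Among 18 other alcohol dehydrogenase and aldo-keto reductase genes, 16 were on the array and 7 bright enough to test. Of these 3 rose and 0 fell by limma (beside 12% and 14.1% of all tested genes), with 4 and 0 at an unadjusted p under 0.05, and the median was 0.22. Besides Akr1c13 and Akr1c12, the third was Akr1cl at 0.54 (SE 0.09, limma adjusted p = 0.0010), which passed the filter on the KO arrays alone and could only be higher. Akr1a1, the widely expressed aldehyde reductase, was not called, at 11.03 ± 0.11 in KO and 11.09 ± 0.14 in WT (SD, n = 3 each), and Akr7a5 was at 0.22 and not called. The dim genes of the list, 9 in all, ran from -0.57 for Adh6b to 0.28 for Adhfe1.

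The other aldehyde dehydrogenase genes were called in both directions. Of 17 genes, 14 were tested, 2 fell and 3 rose (beside 14.1% and 12% of all tested genes), with a median of -0.09. Aldh3b1, which oxidises lipid-derived aldehydes, had 8.30, 8.15 and 8.32 in KO, against 7.50, 7.40 and 7.36 in WT, and rose by 0.84 (SE 0.09, limma adjusted p = 3.3e-05). Its relative Aldh3b2 fell by 0.37 (SE 0.08, limma adjusted p = 0.0058). Aldh4a1 of proline breakdown rose by 0.60 (SE 0.08, limma adjusted p = 0.00030) and Aldh18a1 of proline synthesis fell by 0.31 (SE 0.09, limma adjusted p = 0.027). The Aldh18a1 call was lost without WT replicate 3 (limma adjusted p = 0.057), KO replicate 1 (0.084) or KO replicate 3 (0.085), and the count of falls was 1 without WT replicate 3 or KO replicate 1. Mitochondrial Aldh1b1 rose by 0.38 (SE 0.09, limma adjusted p = 0.010), a call lost without KO replicate 3 (0.053). Aldh2, the main acetaldehyde-clearing enzyme, was at -0.29, and Aldh3a2, next to Aldh3a1, at -0.10, neither called.

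**Figure D3:**
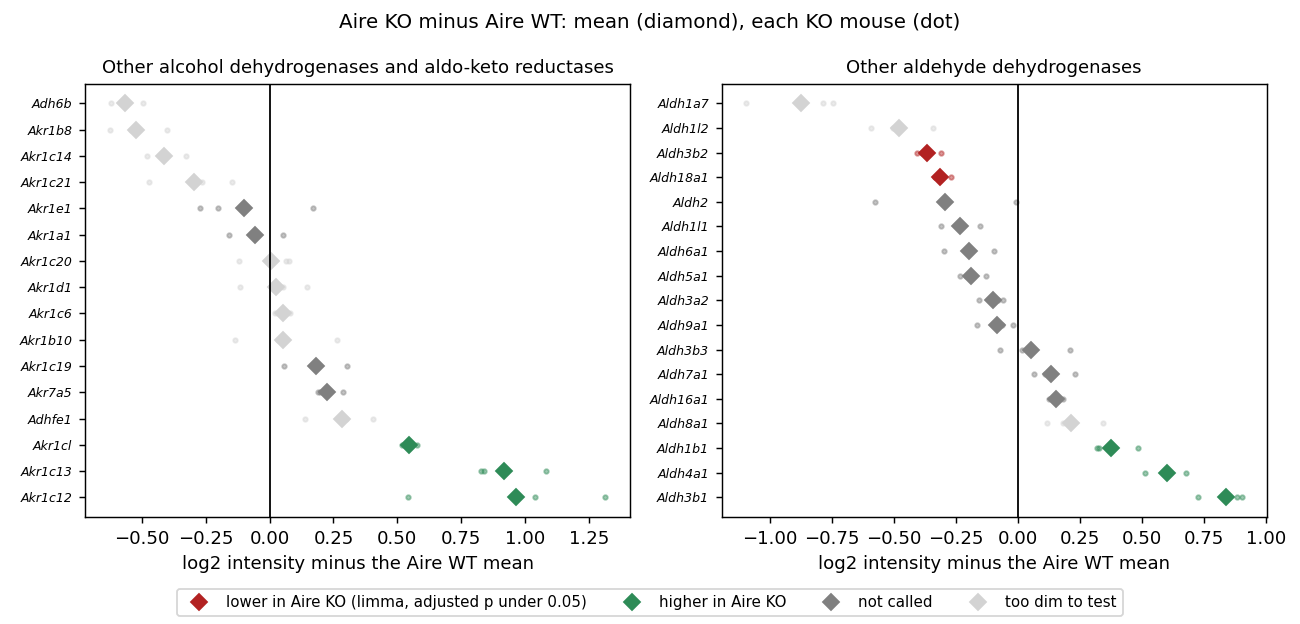
Log2 intensity minus the Aire WT mean (horizontal axis) for the other alcohol dehydrogenase and aldo-keto reductase genes (left) and the other aldehyde dehydrogenase genes (right), sorted by difference. Diamonds are Aire KO minus Aire WT means, dots single KO mice; the called genes lie between -0.37 for Aldh3b2 and 0.97 for Akr1c12.

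Other retinoid handling and signalling genes moved in both directions. Of 34 listed, 33 were on the array and 22 tested, of which 6 fell and 3 rose (beside 14.1% and 12% of all tested genes), with a median of 0.025. Among the falls, the call of Rbp7, whose groups overlapped, was lost in 9 of 14 alternatives and that of Rdh13 in 4 of 15. With each array left out in turn, falls numbered 4 to 5. Crabp1, a cytoplasmic retinoic acid binding protein gene, had 6.73, 7.05 and 6.54 in KO, against 9.17, 9.37 and 9.79 in WT, with every array above the filter and no overlap. It fell by 2.67, or 6.35-fold (SE 0.16, limma adjusted p = 4.9e-07). Crabp2, its relative that delivers retinoic acid to the nucleus, had 7.22, 7.35 and 7.48 in KO, against 7.92, 8.03 and 8.17 in WT, and fell by 0.70 (SE 0.10, limma adjusted p = 0.00034). Rdh12, a retinal reductase gene of photoreceptors, fell by 0.81 (SE 0.14, limma adjusted p = 0.0018), and Bco1, which cleaves beta-carotene to retinaldehyde, fell by 0.59 (SE 0.11, limma adjusted p = 0.0028).

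The 3 retinoid genes called higher act in storage or breakdown. Lrat, which esterifies retinol for storage, had 8.43, 8.63 and 8.44 in KO, against 7.81, 7.67 and 7.86 in WT, and rose by 0.72 (SE 0.09, limma adjusted p = 0.00017). Cyp26a1, which degrades retinoic acid, had 9.96, 9.94 and 9.75 in KO, against 9.26, 9.27 and 9.68 in WT, and rose by 0.48 (SE 0.12, limma adjusted p = 0.012). Cyp26b1 rose by 0.31 (SE 0.09, limma adjusted p = 0.030), a call lost without WT replicate 3 (0.069), KO replicate 1 (0.078), KO replicate 2 (0.092) or KO replicate 3 (0.051). Cyp26c1 was at 0.01 and not called. Rdh10, the main retinol-oxidising enzyme of the embryo, at 0.09, Dhrs3, which reduces retinaldehyde, at -0.20, and the receptor genes Rara at 0.04, Rarg at 0.12, Rxra at -0.08 and Rxrb at 0.17 were not called.

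Steroid genes also moved both ways. Of 35 listed, 31 were on the array and 21 tested, of which 6 fell and 4 rose (beside 14.1% and 12% of all tested genes), with a median of -0.08. The rise of H2-Ke6, the array's name for Hsd17b8, was lost in 7 of 15 alternatives. The fall of Hsd17b11 was lost in 2 of 15 and that of Pgr in 1 of 14. With each array left out in turn, falls numbered 4 to 6 and rises 3 to 4. Cyp11a1, which makes pregnenolone from cholesterol at the start of steroid synthesis, had 5.48, 5.32 and 5.34 in KO, against 7.49, 6.83 and 7.43 in WT. It fell by 1.87, or 3.67-fold (SE 0.15, limma adjusted p = 4.3e-06). Star, which carries cholesterol to Cyp11a1, fell by 0.48 (SE 0.09, limma adjusted p = 0.0022), and Hsd17b13, a lipid droplet enzyme of liver, by 0.86 (SE 0.12, limma adjusted p = 0.00042). Cyp11a1, Star and Hsd17b13 passed the filter on the WT arrays alone and could only be lower. Hsd17b6 fell by 0.60 (SE 0.14, limma adjusted p = 0.0084) with all arrays above the filter.

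The steroid genes that rose had every array above the filter. Cyp17a1, which acts after Cyp11a1 in androgen synthesis, had 7.17, 7.24 and 7.35 in KO, against 6.84, 6.86 and 6.95 in WT, and rose by 0.37 (SE 0.08, limma adjusted p = 0.0077). The oestrogen receptor gene Esr1 rose by 0.47 (SE 0.09, limma adjusted p = 0.0037). The glucocorticoid receptor gene Nr3c1 was at 0.09, and Hsd11b1 and Hsd11b2, which interconvert active and inactive glucocorticoids, at -0.08 and -0.05, none of them called. Of the 10 dim steroid genes, the lowest were Hsd17b3, a testicular testosterone-forming enzyme gene, at -1.39 and Hsd3b6 at -1.16, with 2 of 3 WT arrays and 0 of 3 KO arrays above the filter for each.

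**Figure D4:**
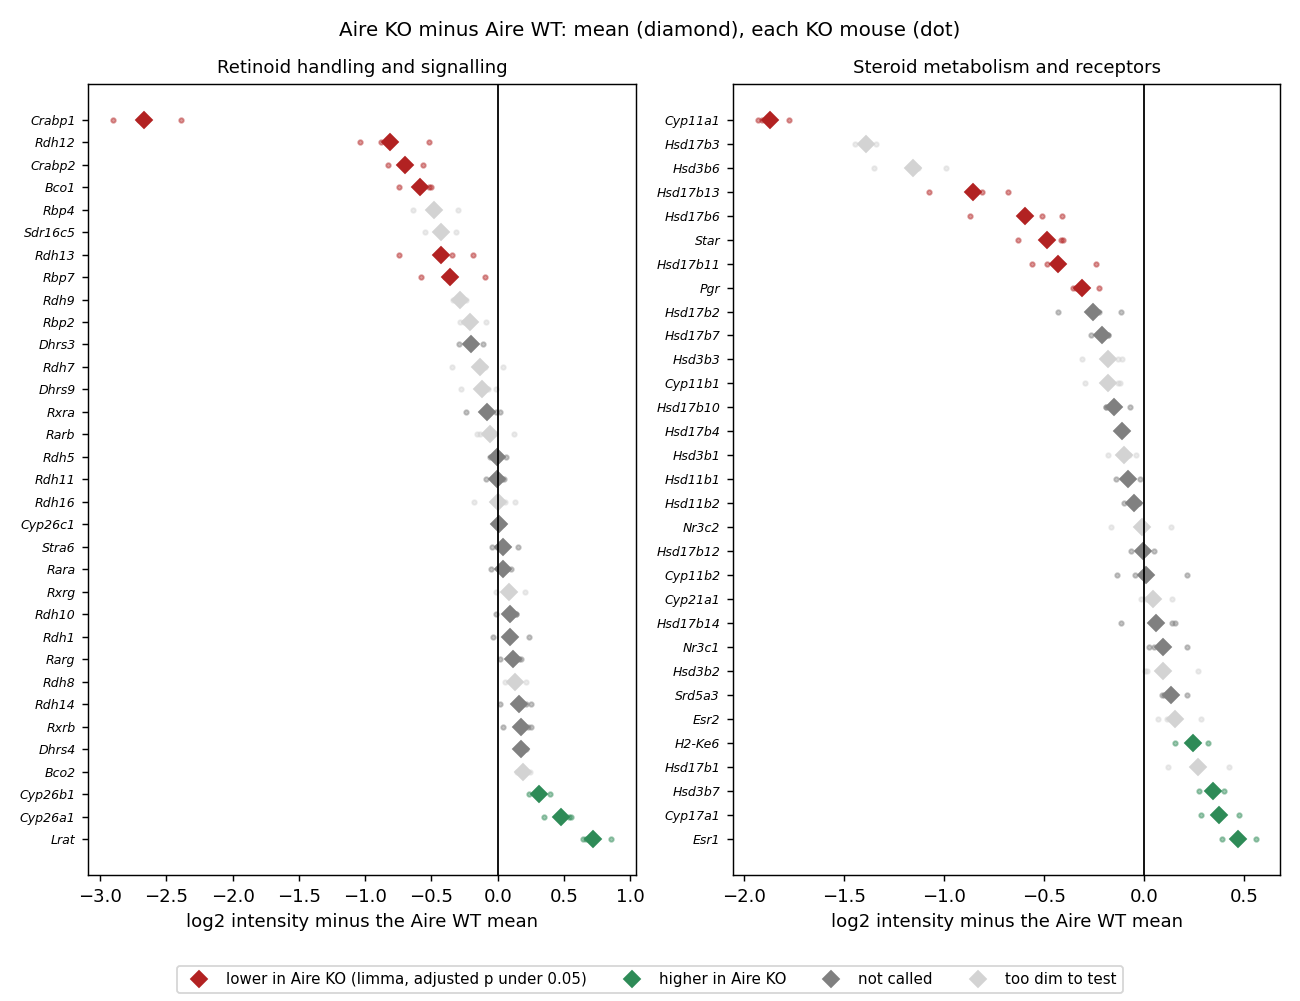
Log2 intensity minus the Aire WT mean (horizontal axis) for the other retinoid genes (left) and the steroid genes (right), sorted by difference. Diamonds are Aire KO minus Aire WT means and dots single KO mice; Crabp1 at -2.67 and Cyp11a1 at -1.87 stand lowest, and Lrat at 0.72 and Esr1 at 0.47 highest.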

How the data were processed

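Per the labels, each mouse gave 1 array, hybridised with biotinylated cRNA from sorted cells after double amplification. The deposited values are linear intensity values per probe set, for which the submitters' processing notes name RMA. That method corrects background, equalises the arrays' distributions and combines probes, and the background left in dim values shrinks their folds. Its version and the genome build: not given in the sources used here. Of 35512 probe sets, 21789 had 1 symbol in the platform annotation, 1621 several and 12102 none. Values were taken to log2 (pseudocount 0), and each gene was taken at its 1-symbol probe set of highest mean. Genes above the 40th percentile (5.97) in at least 3 of 6 arrays were tested with limma 3.58.1 in R 4.3.3 (lmFit and eBayes, two-sided, genotype as the only factor), calling genes at a Benjamini-Hochberg adjusted p under 0.05. SE comes from that fit. The fit was tested on simulated data, and no result of that test is given here. The number of arrays limits the precision.

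The members, the gene lists and the rules were chosen with earlier results of these data known. All members are named, with up to 6 called genes per list in order of adjusted p and direct partners of the members. Other named genes (the dim ones, Akr1a1, Akr7a5, Aldh2, Aldh3a2, Rbp7, Rdh13, H2-Ke6, Hsd17b11, Pgr, Nr3c1, Hsd11b1, Hsd11b2, the cell type markers) were chosen after their values were seen. Gene order and promoters come from RefSeq on GRCm38.p6, which also served to match listed symbols to the array's names. Promoters were aligned with Biopython 1.88. Alternatives covered the filter, normalization, offset, probe set rule, array weights and variance model, a block for the replicate number, and leaving out each array. No scan date or other batch is given. Deviations from the group means of same-numbered KO and WT arrays had correlations of -0.02, -0.21 and -0.06 over tested genes. Those of different-numbered arrays ran from -0.10 to 0.15. With 3 arrays per group these values cannot tell whether the mice were paired.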

Additional observations from a re-analysis of the deposited data

How the results depend on the processing

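The 7 members called lower stayed 7, with 0 higher, in 14 of the 15 alternatives; the 60th percentile filter left 6 members tested and 4 called, as Adh7, Aldh1a1 and Aldh1a2 were then too dim. An offset of 32 before log2 brought the differences closer to 0, by its construction: Akr1c18 to -3.57, Aldh1a2 to -1.19, Aldh1a1 to -1.08, Aldh3a1 to -0.85, Adh6a to -0.75 and Adh7 to -0.42. With no intensity filter, falls numbered 3 of 16 other alcohol dehydrogenase and aldo-keto reductase genes, 4 of 17 other aldehyde dehydrogenase genes and 9 of 38 neighbours, since dim genes were then tested. With the stricter filter, 1 alcohol dehydrogenase or aldo-keto reductase gene rose, and 1 of 10 steroid genes fell and 2 rose. With each array left out in turn, falls numbered 1 to 2 among the other aldehyde dehydrogenases and 3 to 5 among the neighbours, and rises over all genes 1052 to 1547, the lowest without KO replicate 1 (1676 with all arrays). With the replicate number as a block, 1742 genes fell and 1368 rose, against 1963 and 1676 without it. The block left the 7 members lower and moved no list's count by over 1.5 times. The remaining alternatives kept each list's count within 1.5 times. RMA values carry no detection call, so the levels of genes under the filter are bounded by background.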
